A study of Mus musculus with 5 samples.

Results

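The AP-1 and ATF family was followed here through 10 genes of basic leucine zipper transcription factors: Fos, Fosb, Fosl1, Fosl2, Jun, Junb, Jund, Atf3, Maff and Batf3. They were taken by symbol from the 19221 genes measured, and all 10 were among the 12783 genes that reached 1 RPKM in at least 1 library. RPKM is a read count divided by the length of the transcript and by the reads of the library, so that genes and libraries can be compared. The tissue was caudate putamen, the dorsal striatum, of male C57BL/6 mice aged 9 weeks in which a small stroke had been made by light. Rose bengal, a dye that clots blood in vessels under green light, was injected at 100 mg/kg, and 5 min later a laser of 532 nm and 30 mW was shone for 2 min through a fibre 3 mm deep. The 4 stroke libraries were made 4 hours, 1 day, 3 days and 10 days later, each from the mixed punches of 6 mice. The 1 sham library mixed punches of the left side, where the fibre and the laser were applied before the dye, so the sham tissue had also been pierced and lit. The sources used here do not say how many mice, or which times, the sham mix holds. With 1 library per group there is no spread between replicates, and every comparison is between these libraries.

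AP-1 is a dimer of basic leucine zipper proteins: FOS proteins pair only with partners such as the JUN proteins, whereas JUN proteins can also pair with each other and with ATF proteins. The dimers bind short DNA elements, TGACTCA for FOS with JUN and TGACGTCA, the cAMP response element, for many dimers that hold an ATF or CREB protein. In brain, Fos and Fosb are immediate early genes that neurons switch on after firing or injury, Fosl1, Fosl2 and Jund are known as later or steadier members, and ATF3 is a stress factor widely used as a marker of injured neurons.

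Against sham, 5 of the 10 members were at least 2-fold higher at 4 hours: Fos, Fosb, Jun, Atf3 and Maff. Folds are log2((stroke RPKM + 1) / (sham RPKM + 1)), on which low genes differ by less than their plain ratio, and 2-fold means a value of 1 or more. At 4 hours 2.2% of all analysed genes were that much higher and 1.09% that much lower. On day 1 again 5 members passed, namely Fos, Fosl1, Jun, Atf3 and Maff, where 3.33% of genes were higher and 1.35% lower. On day 3 Atf3 alone of the 10 passed, where 9.04% of genes were higher and 0.618% lower. On day 10 Atf3 was again the only member past the limit, where 4.2% of genes were higher and 0.172% lower. No member was 2-fold lower at any of the 4 times. All 4 comparisons share the sham library.

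**Figure D1:**
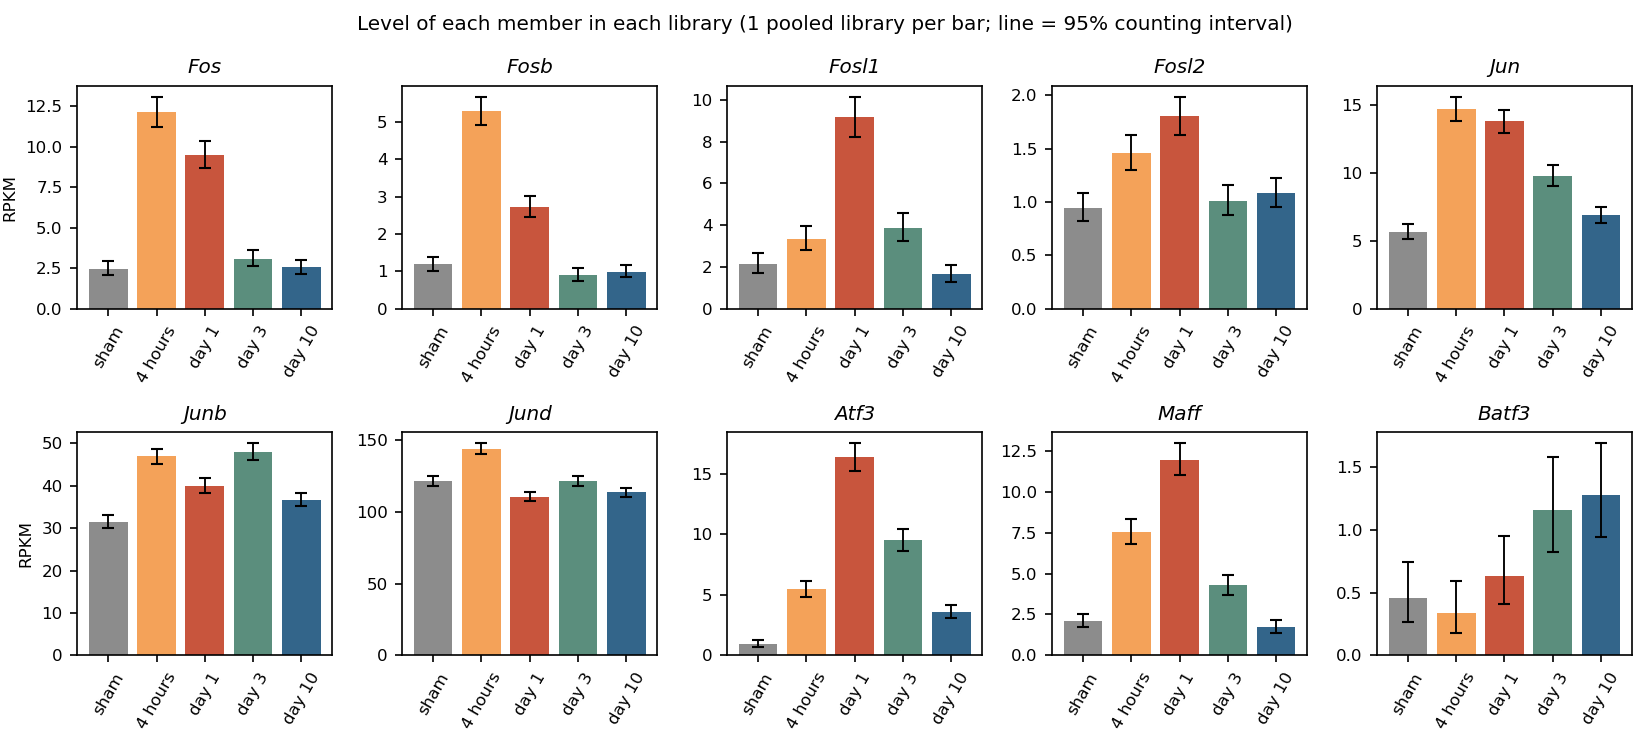
RPKM (y axis, from 0, a separate scale per panel) of each member in the 5 libraries (x axis). Each bar is 1 pooled library and each line its 95% interval from counting error only. Fos and Fosb are highest at 4 hours, Fosl1, Fosl2, Atf3 and Maff on day 1, and Batf3 on day 10.

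The total by which RPKM is divided was filled differently in the 5 libraries. They held between 42261790 and 48013860 reads, and ribosomal RNA, mitochondrial, predicted and small RNA genes took 52.5% of them in sham and 40.5% at 4 hours. The median log2 fold of all analysed genes was 0.28 at 4 hours, -0.02 on day 1, 0.12 on day 3 and 0.07 on day 10. After median-of-ratios scaling, which sets the typical gene equal between libraries, 0.54% of genes were 2-fold higher at 4 hours and 2.03% lower. Jun then fell short of the limit at 4 hours, with a log2 fold of 0.86, and the other 4 members stayed past it. Striatal markers were present: the 8 genes that mark medium spiny neurons, the principal striatal cells, summed to 1376 RPKM in sham, 1457 at 4 hours, 649 on day 1, 904 on day 3 and 1160 on day 10. In bulk tissue, fewer cells of a type and less RNA per cell cannot be told apart. The sources used here do not say whether reads were counted by strand.

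**Figure D2:**
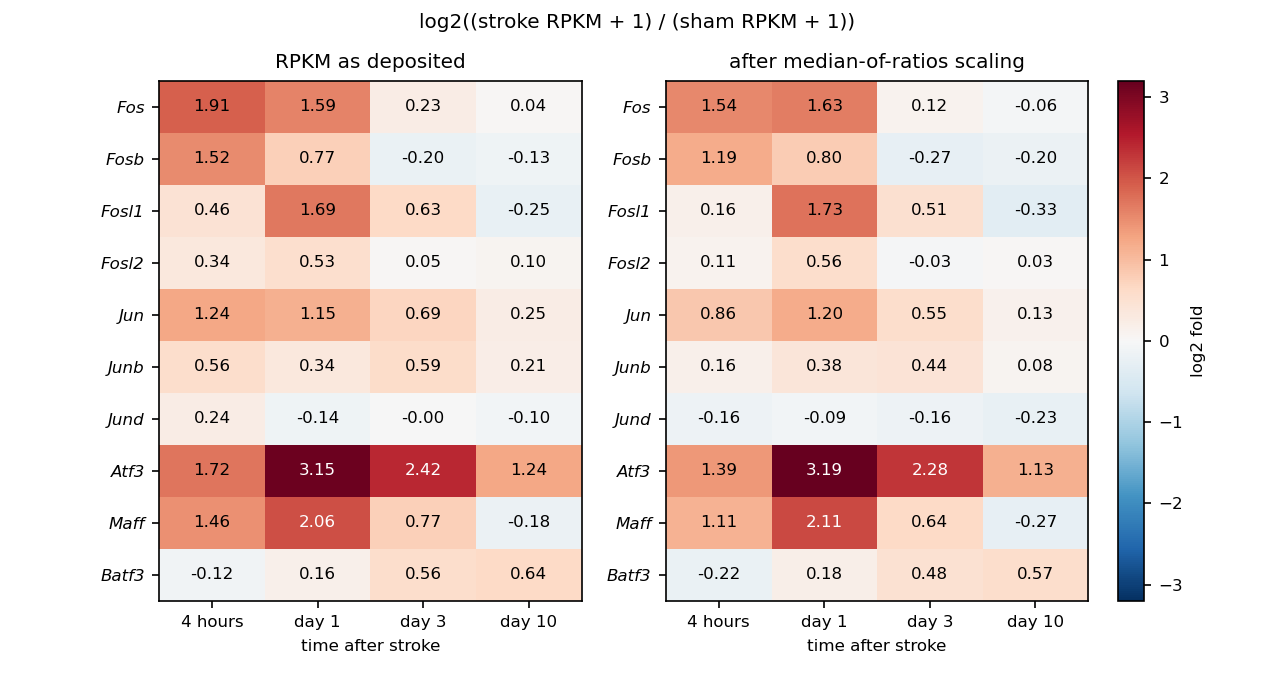
log2 fold over sham (RPKM + 1; colour scale and printed values) for the 10 members (rows) at 4 times (columns), from RPKM as deposited (left) and after median-of-ratios scaling (right). The signs of Jund at 4 hours, Fosl2 on day 3 and Fos on day 10 differ between the panels, and all other signs are the same.

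Short stretches around the members' start sites were searched for these elements. RefSeq windows of 300 bases on GRCm38.p6, reaching from 250 bases before the start site to 50 after it, were found for 9 members, 11 windows in all with 3 for Maff. The stretches below run from -130 to -11 on the gene's own strand and are shown for members with a match in them. Capitals mark TGACG, the opening of the cAMP response element, TGACGTCA, or TGACATCA, a variant element through which JUN and ATF proteins are known to act on the Jun gene. They lie at chr12:85473760-85473879 (plus strand), chr7:19310056-19310175 (minus strand), chr4:95052233-95052352 (minus strand), chr8:84978759-84978878 (minus strand), chr15:79347390-79347509 and chr15:79348272-79348391 (both plus strand).
Fos: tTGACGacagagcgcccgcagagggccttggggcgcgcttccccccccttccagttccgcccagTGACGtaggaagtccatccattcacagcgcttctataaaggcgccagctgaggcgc
Fosb: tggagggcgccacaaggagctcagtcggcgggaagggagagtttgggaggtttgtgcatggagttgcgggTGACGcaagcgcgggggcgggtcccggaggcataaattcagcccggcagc
Jun: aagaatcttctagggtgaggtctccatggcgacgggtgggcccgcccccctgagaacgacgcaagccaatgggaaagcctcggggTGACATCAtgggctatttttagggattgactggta
Junb: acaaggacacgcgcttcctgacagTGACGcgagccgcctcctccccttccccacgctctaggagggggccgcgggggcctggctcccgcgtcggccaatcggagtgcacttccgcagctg
Maff, window 2: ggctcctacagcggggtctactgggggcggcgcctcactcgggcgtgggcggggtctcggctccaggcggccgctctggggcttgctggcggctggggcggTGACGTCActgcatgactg
Maff, window 3: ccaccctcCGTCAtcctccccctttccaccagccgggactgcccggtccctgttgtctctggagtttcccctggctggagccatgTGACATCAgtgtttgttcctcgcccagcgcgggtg
TGACG, searched on both strands as were all the motifs, was found in 6 of the 11 windows, of 5 members, and in 20.8% of the 32851 RefSeq windows of mouse genes. It was added after the windows had been read, and it also lies inside TGACGTCA. In Fos it sat at -66 to -62 and at -129 to -125, in Fosb at -60 to -56 and in Junb at -106 to -102. In Atf3 it lay at -7 to -3 on the opposite strand. The full element TGACGTCA was found in Maff window 2, at -29 to -22, and in 1.79% of all windows. TGACATCA was found in Jun and in Maff window 3, both at -45 to -38, and in 3.62% of all windows. The windows of Fosl2, Batf3 and Atf3 and Maff windows 2 and 3 start inside the annotated span of their gene, and the Jund window ends before the annotated gene begins. No member window held TGACTCA, which 5.2% of all windows held, or a CArG box, the serum response element core, which 1.63% held. Elements more than 250 bases upstream lay outside the windows, so these matches do not show which elements a gene lacks. The member windows had a median GC content of 61.3%, against 52.7% for all windows.

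Fos, the prototype immediate early gene and partner of JUN in AP-1, stood at 2.48 RPKM in sham, 12.1 at 4 hours, 9.46 on day 1, 3.09 on day 3 and 2.58 on day 10. The 4-hour and day-1 libraries stood above the other 3, which lay close together. Fos lies at chr12:85473890-85477273. The 4-hour level was 4.88 times sham (95% interval 4.04 to 5.94, from counting error only, as for every interval here), a log2 fold of 1.91. On day 1 the ratio was 3.82 (3.14 to 4.66) and the log2 fold 1.59. By day 3 the ratio was 1.25 with an interval that reached below 1 (0.980 to 1.58). Fos had the 20th largest log2 fold of all 12783 genes at 4 hours and the 98th on day 1.

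Fosb, whose product and its truncated form are known to build up in striatal neurons after repeated stimulation, stood at 1.19 RPKM in sham, 5.28 at 4 hours, 2.72 on day 1, 0.902 on day 3 and 0.994 on day 10. It was high at 4 hours, intermediate on day 1 and slightly under sham at the last times. The gene lies at chr7:19302696-19310051. Its 4-hour level was 4.44 times sham (3.75 to 5.29) and its log2 fold 1.52. On day 1 the ratio was still 2.29 (1.90 to 2.76), but the log2 fold of 0.77 missed the limit, since the added 1 RPKM weighs on so low a gene. On day 3 it was 0.760 times sham (0.595 to 0.967). On day 10 the ratio was 0.837 with an interval that included 1 (0.667 to 1.05). The table gives 1 value for the gene, so its full-length and truncated transcripts cannot be told apart.

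Fosl1, which encodes FRA1, a FOS protein without a transactivation domain that is known from wound edges and invading cells, stood at 2.15 RPKM in sham, 3.34 at 4 hours, 9.16 on day 1, 3.88 on day 3 and 1.66 on day 10. Here the day-1 library stood alone above the others. The day-1 level was 4.26 times sham (3.34 to 5.47), a log2 fold of 1.69 and the 89th largest of all genes. At 4 hours the ratio was 1.55 (1.17 to 2.07), and the log2 fold of 0.46 shrank to 0.16 after median-of-ratios scaling. The gene, at chr19:5447547-5455946, shares 1163 exonic bases with Ccdc85b on the opposite strand, which stood at 239, 209, 226, 223 and 235 RPKM in the same order of libraries. If reads were counted without strand, those of the shared bases cannot be assigned to 1 of the genes.

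Fosl2, which encodes FRA2, was low throughout: 0.947 RPKM in sham, 1.46 at 4 hours, 1.80 on day 1, 1.01 on day 3 and 1.08 on day 10. Like Fosl1 it was highest on day 1, at 1.90 times sham (1.61 to 2.26), a log2 fold of 0.53. The gene lies at chr5:32135801-32157842.

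Jun, the partner that most FOS proteins need and a target of JUN N-terminal kinase in stressed neurons, stood at 5.65 RPKM in sham, 14.7 at 4 hours, 13.8 on day 1, 9.76 on day 3 and 6.90 on day 10. As deposited, the first 2 stroke libraries were level with each other, and the later ones lay between them and sham. The log2 difference from 4 hours to day 1, -0.09, became 0.34 after median-of-ratios scaling and so has no stable sign. The ratio to sham was 2.60 at 4 hours (2.31 to 2.92), 2.43 on day 1 (2.17 to 2.74), 1.73 on day 3 (1.52 to 1.96) and 1.22 on day 10 (1.07 to 1.39). The log2 folds were 1.24, 1.15, 0.69 and 0.25. The single-exon gene at chr4:95049034-95052222 shares 232 bases with the antisense gene Junos, which stayed between 0.287 and 0.729 RPKM.

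Junb, an AP-1 member that can restrain JUN as well as replace it, stood at 31.5 RPKM in sham, 46.9 at 4 hours, 40.1 on day 1, 48.1 on day 3 and 36.8 on day 10. All 4 stroke libraries were above sham, by less than the limit. The largest log2 folds were 0.59 on day 3 and 0.56 at 4 hours, and the latter became 0.16 after median-of-ratios scaling. The gene lies at chr8:84974484-84978718 and shares 173 bases with Prdx2 on the opposite strand.

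Jund, the member known for steady expression in resting cells, was the most abundant of the 10 in each library, at 122 RPKM in sham, 144 at 4 hours, 111 on day 1, 121 on day 3 and 114 on day 10. The 5 levels lay within a narrow band. Its log2 fold of 0.24 at 4 hours turned to -0.16 after median-of-ratios scaling, and the values at the other times lay between -0.14 and 0. The single-exon gene at chr8:70698949-70700616 shares 877 bases with the antisense gene Gm11175, which stood at 151, 171, 131, 145 and 140 RPKM, and the same limit holds for the shared bases.

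Atf3, a stress-induced factor that binds cAMP response elements and represses or activates according to its partner, stood at 0.961 RPKM in sham, 5.48 at 4 hours, 16.4 on day 1, 9.49 on day 3 and 3.62 on day 10. All 4 stroke libraries lay well above sham, with day 1 the highest and day 10 the lowest of them. It had the largest ratios of the family: 5.70 at 4 hours (4.16 to 7.95), 17.0 on day 1 (12.7 to 23.4), 9.88 on day 3 (7.29 to 13.7) and 3.76 on day 10 (2.72 to 5.31). The log2 folds were 1.72, 3.15, 2.42 and 1.24. They placed Atf3 30th, 13th, 138th and 362nd among all genes at the 4 times. It passed the 2-fold limit at each of the 4 times under each of the 3 other scalings and both other pseudocounts tried. The gene lies at chr1:191170296-191218039.

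Maff encodes a small MAF protein, which has no activation domain of its own and pairs with NRF2-type or BACH partners. It stood at 2.1 RPKM in sham, 7.53 at 4 hours, 12 on day 1, 4.28 on day 3 and 1.73 on day 10. Its level was highest on day 1, as for Atf3, but was back below sham by day 10. The ratio to sham was 3.58 at 4 hours (2.86 to 4.52), 5.69 on day 1 (4.6 to 7.11) and 2.04 on day 3 (1.59 to 2.62). The log2 folds were 1.46, 2.06 and 0.77. On day 10 the ratio was 0.823 with an interval that included 1 (0.611 to 1.11). The gene lies at chr15:79346621-79359076.

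Batf3, a factor known for the development of cross-presenting dendritic cells, was the lowest member in sham, at 4 hours and on day 1, at 0.460, 0.341 and 0.635 RPKM, and stood at 1.16 RPKM on day 3 and 1.28 on day 10. It was the one member whose highest level came on day 10. The ratio to sham was 2.51 on day 3 (1.38 to 4.78) and 2.78 on day 10 (1.56 to 5.19), resting on 33 reads in sham, 78 on day 3 and 98 on day 10. The log2 folds of 0.56 and 0.64 missed the limit with a pseudocount of 1 and passed it with 0.1, at 1.17 and 1.3. Of 6 dendritic cell markers listed, Zbtb46 was the one in the table, at 0.1 to 0.205 RPKM over the 5 libraries. The gene lies at chr1:191097847-191108945, on the same chromosome as Atf3.

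Ratios of members within a library do not depend on the scaling between libraries. The 4 FOS genes summed to 6.77 RPKM in sham, 22.2 at 4 hours, 23.1 on day 1, 8.88 on day 3 and 6.31 on day 10. The 3 JUN genes summed to 159, 206, 164, 179 and 157 RPKM. JUN transcripts thus outnumbered FOS transcripts 23.5 to 1 in sham, 9.27 to 1 at 4 hours, 7.10 to 1 on day 1, 20.2 to 1 on day 3 and 24.9 to 1 on day 10. The ratio was low in the first 2 stroke libraries and near the sham value in the last. Jund shares exonic bases with Gm11175, and without it Jun and Junb together stood to the FOS genes at 5.50 to 1 in sham, 2.78 at 4 hours, 2.33 on day 1, 6.51 on day 3 and 6.92 on day 10, again lowest in the first 2 stroke libraries. Jund made up 76.6% of the JUN sum in sham and 67.3% on day 1, and Jun 3.56% and 8.37%.

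Within the FOS genes the make-up differed between 4 hours and day 1, although their sum of RPKM as deposited was nearly the same. Unlike the shares, that sum depends on the scaling. The log2 factor divided out in median-of-ratios scaling was 0.41 at 4 hours and -0.05 on day 1. Fos took 54.6% of the FOS sum at 4 hours and 40.9% on day 1, and Fosb 23.8% and 11.7%. Fosl1 took 15.1% at 4 hours, 39.6% on day 1 and 43.7% on day 3. Since Fosl1 shares exonic bases with Ccdc85b, the limit given for those bases also holds for the FOS sum, these shares and the Fosl1 to Fos ratio. The ratio of Fosl1 to Fos was 0.868 in sham (0.651 to 1.15), 0.276 at 4 hours (0.227 to 0.333), 0.968 on day 1 (0.844 to 1.11), 1.26 on day 3 (0.992 to 1.59) and 0.644 on day 10 (0.476 to 0.865). The 4-hour library was the low one, with an interval clear of the other 4. Atf3 stood to Jun at 0.170 in sham, 0.373 at 4 hours, 1.19 on day 1, 0.972 on day 3 and 0.524 on day 10, so the day-1 and day-3 libraries were the ones in which both transcripts were about as abundant. Maff stood to Atf3 at 2.19 in sham, 1.37 at 4 hours, 0.731 on day 1, 0.451 on day 3 and 0.478 on day 10.

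**Figure D3:**
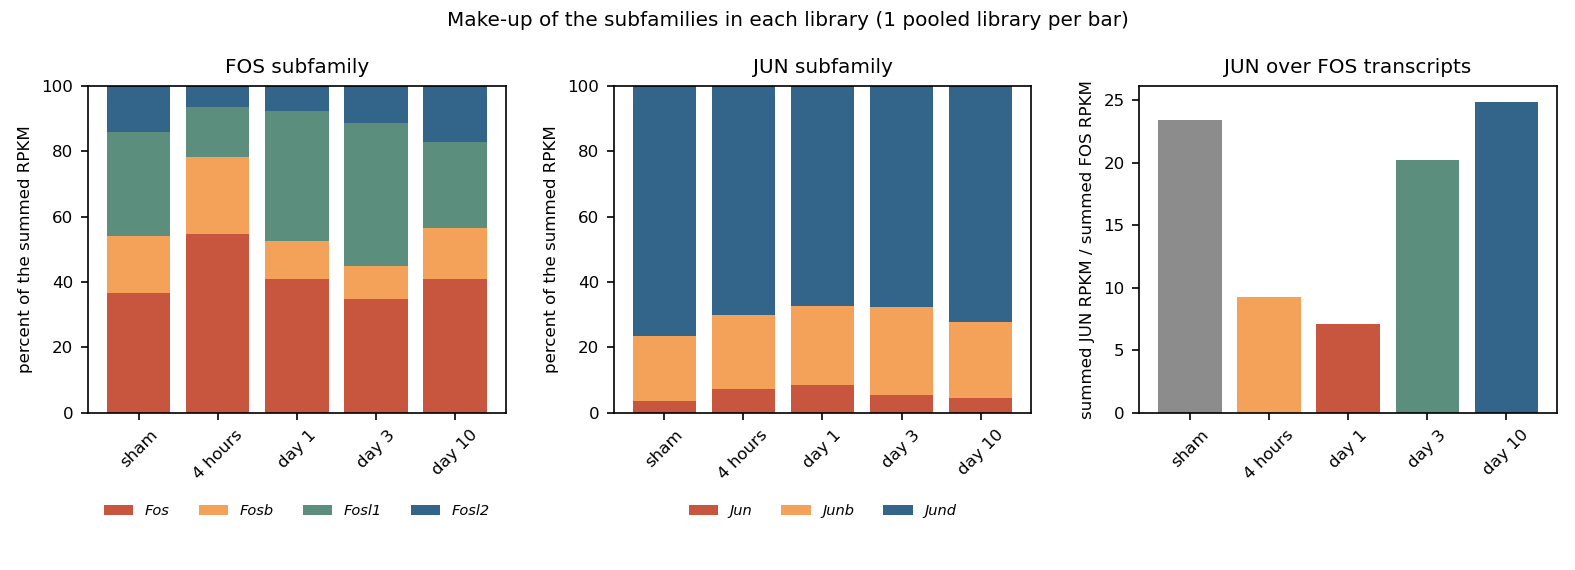
Left and middle, percent of the summed RPKM (y axis) that each FOS or JUN gene takes in the 5 libraries (x axis); right, summed JUN RPKM over summed FOS RPKM. Each bar is 1 pooled library without error. Fos and Fosb take most of the FOS sum at 4 hours, Fosl1 its largest shares on day 1 and day 3, and the JUN to FOS ratio is lowest on day 1.

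The order of the levels followed these differences. Jund and Junb led in each of the 5 libraries. Jun and Fos came next in sham and at 4 hours. On day 1 Atf3 came next after them, ahead of Jun (ratio 1.19, interval 1.08 to 1.31). On day 3 Jun and Atf3 did not differ beyond counting error (ratio 0.972, interval 0.859 to 1.10). On day 1 Fosl1 and Fos also lay within counting error of each other, which does not cover the bases that Fosl1 shares with Ccdc85b. Fosb had the lowest level on day 3 and day 10, but its interval overlapped those of Fosl2 and Batf3 on both days.

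From 4 hours to day 1 the members parted. Atf3 was higher on day 1 by 1.42 on the log2 scale (ratio 2.99, 2.60 to 3.44), Fosl1 by 1.23 (2.74, 2.24 to 3.37) and Maff by 0.60 (1.59, 1.39 to 1.82), and these 3 differences kept their sign under each other scaling. Fosb was lower on day 1, with a log2 difference of -0.76 that became -0.39 after median-of-ratios scaling. The Fos difference of -0.33 became 0.09 and so has no stable sign. From day 1 to day 3 the log2 difference was -1.36 for Fos, -1.30 for Maff, -1.06 for Fosl1, -0.97 for Fosb and -0.73 for Atf3. From day 3 to day 10 it was -1.18 for Atf3, -0.95 for Maff and -0.88 for Fosl1. Neighbouring steps share a library, so their values are not independent.

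In the authors' deposited table, GFOLD, which pulls a log2 fold towards 0 where reads are few, was 3.74 for Atf3 on day 1 and 2.94 on day 3. For Fos the authors' deposited table gave 2.06 at 4 hours, for Fosb 1.95, and for Fosl1 1.80 on day 1. The same members passed 1 on that scale at each time as on the scale used here.

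Genes with a time course like a member's were sought by the root-mean-square (RMS) difference of their 4 log2 folds against sham, which all share that library. Nearest to Fos were Gadd45b, a stress and activity gene, at 0.27, the mitochondrial ND3 at 0.33 and mt-Ts1 at 0.39, then Nrn1 and Gadd45g, both at 0.42. Nearest to Fosb was Kcnj13, a potassium channel of choroid plexus, at 0.09, followed by Nrn1 at 0.13 and Hprt and Ncald at 0.19, with Vmp1 at 0.22. The 7 choroid plexus and ependymal markers, Kcnj13 among them, summed to 82.5 RPKM in sham, 745 at 4 hours, 308 on day 1, 26.4 on day 3 and 7.32 on day 10. Ttr made up most of this sum in the first libraries, at 77.4 RPKM in sham, 729 at 4 hours and 303 on day 1. Foxj1, Clic6 and Kl lay under sham on day 1. Foxj1 stood at 3.23 RPKM in sham, 4.83 at 4 hours, 2.24 on day 1, 6.18 on day 3 and 6.47 on day 10. The part of these markers in the Fosb values was not tested. Fosl1 had Snord60 and Odc1, the enzyme that starts polyamine synthesis, both at 0.16, and Sphk1, Nop10 and Smim26 at 0.20. Jun had H3f3a at 0.10, Tm2d1 at 0.12, and Ppp1r15a and the immediate early gene Ier2 at 0.13, with AC130831.1 at 0.16.

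Maff lay nearest to 3 mitochondrial transfer RNA genes, mt-Tk at 0.18, mt-Ts1 at 0.29 and mt-Te at 0.30, and then to Gadd45b at 0.32 and Gadd45g at 0.33. Atf3 had no close neighbour: the nearest were Pf4 at 0.57, Ccl3 at 0.71, Cd14 at 0.72, Ccl4 at 0.73 and Ccl6 at 0.84, platelet or myeloid chemokines and a monocyte receptor. Common courses were those of Jund, Junb, Fosl2 and Batf3, with 3328, 1332, 1087 and 424 genes within 0.25. Their 5 nearest were within 0.04 of Jund, 0.06 of Junb and Fosl2 and 0.10 of Batf3, led by Myh7, Idh3g, Kbtbd3 and Mir7060. Among the members themselves Fosl2 and Junb lay closest, at 0.32, and Atf3 and Jund farthest apart, at 2.27.

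Markers of immune cells and of other cell types also differed between the libraries. The 6 neutrophil markers in the table summed to 12.6 RPKM in sham, 7.45 at 4 hours, 154 on day 1, 13.9 on day 3 and 18.7 on day 10. Ngp and Cxcr2 were at 0 at 4 hours and at 0.2 and 0.0292 RPKM in sham, while Retnlg stood at 0.988 RPKM in sham and 1.32 at 4 hours. On day 1 most of the sum came from S100a8 and S100a9, at 53.0 and 93.4 RPKM. Csf3r differed from them, at 1.21 RPKM in sham, 1.26 on day 1, 5.19 on day 3 and 8.89 on day 10. The 8 monocyte and macrophage markers summed to 36.1, 27.1, 101, 358 and 363 RPKM. Ccr2 was at 0 at 4 hours and 0.0198 in sham, and Cd14 at 9.37 at 4 hours and 5.89 in sham. The near-equal sums on day 3 and day 10 hid opposite differences. Lyz2 stood at 97.9 RPKM on day 3 and 245 on day 10, and Ly6c2 was also higher on day 10. Cd68 stood at 211 and 81.9 and Arg1 at 10.2 and 0.0841, and Cd14 and Adgre1 were also lower on day 10. The median log2 fold of the 6 analysed was 2.65 on day 3 and 1.74 on day 10. The 7 microglia markers summed to 59.3, 71.3, 46.8, 313 and 263 RPKM. On day 1 the neutrophil sum was highest, as were Atf3, Fosl1 and Maff. Cortical excitatory neuron markers (6 genes) summed to 69.0, 104, 102, 64.2 and 57.9 RPKM, and oligodendrocyte markers (7 genes) to 907, 1512, 1395, 759 and 934, so both sums were highest in the first 2 stroke libraries. The part of these cell types in the members' values was not tested. Medium spiny neuron markers were at their lowest on day 1, when 6 of 8 passed the limit downwards, beside 1.35% of all genes. After median-of-ratios scaling Drd2 and Gpr6, both at -0.97, fell just short of the limit.

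Relatives of the members were mostly not past the limit. Of 11 ATF and CREB genes listed, 5 were analysed, and Atf4, the effector of the integrated stress response, alone passed: it stood at 26.2 RPKM in sham, 43.9 at 4 hours, 73.5 on day 1 (log2 fold 1.46), 47.3 on day 3 and 31.9 on day 10. Mafg and Mafk, the other small MAF genes, did not pass at any time. Of the 2 BATF and JDP genes analysed, Batf, like Batf3, was highest on day 10, at 2.15 RPKM against 0.538 in sham, a log2 fold of 1.03 that was 0.94 after median-of-ratios scaling. Neither of the 2 analysed CNC and BACH genes, partners of small MAF proteins, passed.

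The C/EBP factors, basic leucine zipper proteins that can pair with ATF proteins, were further from sham. Of 6 analysed, 3 were 2-fold higher on day 1, 3 on day 3 and 1 on day 10. The shares of all analysed genes were 3.33%, 9.04% and 4.2%. Cebpd stood at 7.33 RPKM in sham and 34.2 on day 1, a log2 fold of 2.08. Cebpb had log2 folds of 1.25 on day 1 and 1.46 on day 3, Nfil3 1.08 on day 1, and Cebpa 1.40 on day 3 and 1.64 on day 10. Exons of Cebpd, Cebpb and Cebpa overlap those of Spidr, Tmem189 and Gm45091. The list median on day 1 was 1.02, beside -0.02 for all genes.

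Upstream of AP-1, none of the 6 SRF and ETS cofactor genes, which drive Fos transcription, was 2-fold higher, and Mkl1, whose exons overlap those of Sgsm3, was lower on day 1 with a log2 fold of -1.02 (-0.98 after median-of-ratios scaling). Of 6 dual specificity phosphatases, which switch MAP kinases off, Dusp1 alone passed, at 4 hours, with 7.39 RPKM in sham and 18.7. Its log2 fold of 1.24 was 0.85 after that scaling, and its exons overlap those of Ergic1.

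Among 21 other immediate early genes in the table, 3 were under 1 RPKM in each library. Of the 21, 6 were 2-fold higher at 4 hours, 4 on day 1, 2 on day 3 and none on day 10. None was lower. Of all analysed genes, 2.2%, 3.33%, 9.04% and 4.2% were higher at these times. After median-of-ratios scaling Ier2 and Ctgf fell short at 4 hours, with log2 folds of 0.88 and 0.69. Cyr61, a matricellular protein, stood at 2.02 RPKM in sham, 17.7 at 4 hours, 16.5 on day 1, 5.70 on day 3 and 2.46 on day 10, with log2 folds of 2.63 and 2.54 in the first 2 stroke libraries. Npas4, which neurons switch on after calcium entry, had a log2 fold of 2.12 at 4 hours and did not pass later. Zfp36, which destabilises messenger RNAs and whose exons overlap those of Gm44710, had 1.79 at 4 hours and 1.57 on day 1. Ier3, a survival gene, stood at 5.83 RPKM in sham, 7.91 at 4 hours and 44.3 on day 1, with log2 folds of 2.73 on day 1 and 1.72 on day 3.

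Genes known from other work as AP-1 targets in injured tissue were mostly higher in the later libraries. Of 22 in the table, none was 2-fold higher at 4 hours and 1 was lower. In the later libraries 14 were higher on day 1, 11 on day 3 and 5 on day 10. The shares of all analysed genes were 3.33%, 9.04% and 4.2% at those later times. Of these 22, 5 stayed under 1 RPKM in each library and could not reach the limit on this scale. The medians over all 22 were -0.01, 1.15, 0.93 and 0.34 in that order, beside 0.28, -0.02, 0.12 and 0.07 for all genes. After median-of-ratios scaling 2 were lower at 4 hours. Ccl2, the monocyte chemokine, had a log2 fold of 3.60 on day 1, Hmox1, which breaks down haem, 2.79 on day 1 and 3.39 on day 3, and the metalloproteinase Mmp3 2.48 on day 1 and 2.21 on day 10. Spp1, whose exons overlap those of Gm42793, had 4.41 on day 3 and 3.40 on day 10, and Vim 3.97 and 2.13. Timp1, the metalloproteinase inhibitor, stood at 11.1 RPKM in sham, 0.368 at 4 hours, 60.4 on day 1, 100.0 on day 3 and 24.6 on day 10, so it was lower than sham at 4 hours and higher later. Several of these genes are also products of macrophages or astrocytes. The monocyte and macrophage list had median log2 folds of 0.96 on day 1 and 2.65 on day 3. The astrocyte list had -0.32 and -0.16, with 1 and 2 of its 7 genes 2-fold higher, Gfap among them at 1.41 and 2.31. At 4 hours each of the 2 lists had 1 gene 2-fold lower than sham and 0 higher. These were Lyz2, at 10.7 RPKM in sham and 3.94 at 4 hours, and Gfap, at 102 and 26.3. The part of these cells in the target genes' values was not tested. The sham tissue had also been pierced and lit, and the part of that in the comparisons with sham was not tested.

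**Figure D4:**
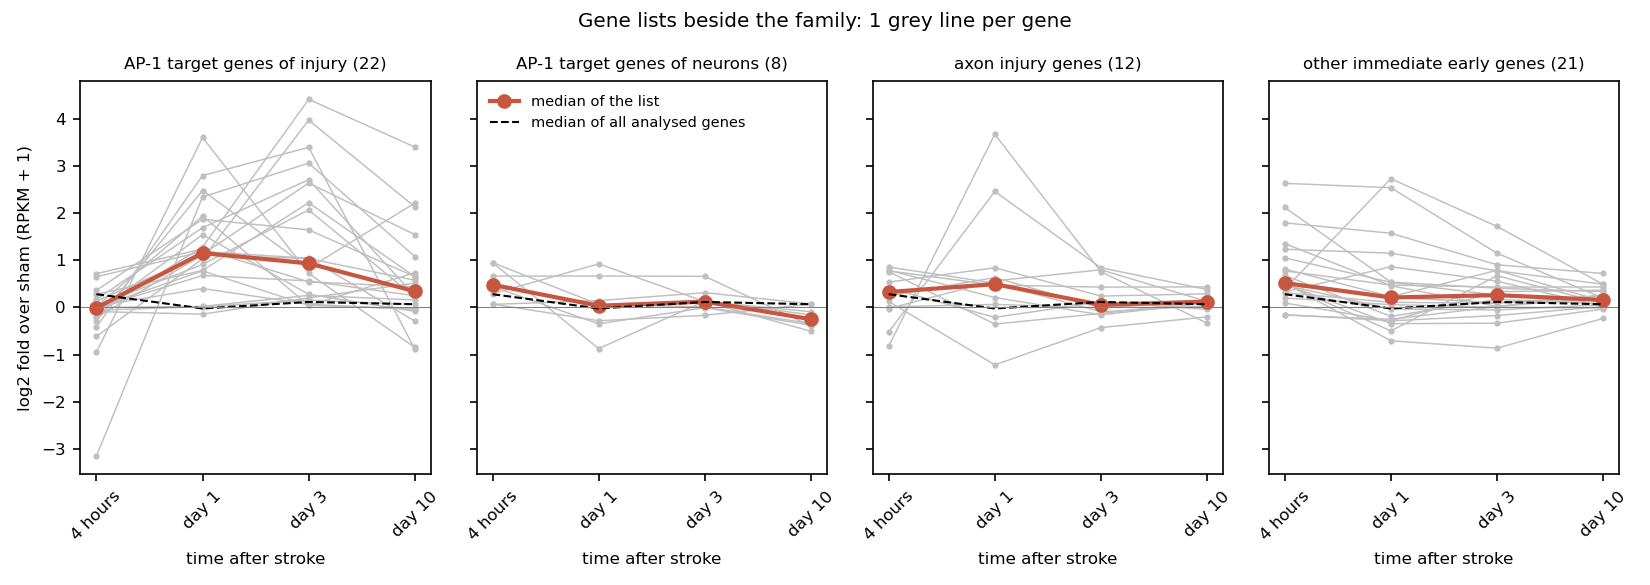
log2 fold over sham (y axis, RPKM + 1) at the 4 times (x axis) for 4 gene lists, with the number of genes in the table in each title. Grey lines are single genes, the red line is the list median and the dashed line the median of all analysed genes. The injury target list has medians of -0.01 at 4 hours and 1.15 on day 1, and no gene of the neuronal target list reaches 1.

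Targets known from neurons differed less. None of the 8 passed the limit at any time, and the list medians were 0.48, 0.04, 0.12 and -0.25. After median-of-ratios scaling the first was 0.10 and the day-3 median turned to -0.02. Penk, the enkephalin precursor and a known target of FOS and JUN dimers in striatum, named here after its values were seen, stood at 432 RPKM in sham, 836 at 4 hours, 236 on day 1, 474 on day 3 and 388 on day 10. Its log2 fold of 0.95 at 4 hours was 0.55 after median-of-ratios scaling. Of 12 axon injury genes in the table, 2 were under 1 RPKM in each library. On day 1, 2 of the 12 were higher and 1 lower, beside 3.33% and 1.35% of all genes. None passed at the other times. Atf3 and Jun are known regulators of this set. Sprr1a stood at 0.911 RPKM in sham, 0.0810 at 4 hours, 23.3 on day 1, 2.23 on day 3 and 0.517 on day 10, and its log2 fold on day 1 was 3.67. Hspb1, a small heat shock protein, had 2.46 and Ecel1, an endopeptidase of injured neurons, -1.22.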

How the data were processed

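The authors deposited 1 table of 19221 genes with an RPKM value per gene and library, per the file headers. Its headers also name GFOLD, the authors' shrunken log2 fold between 2 libraries, made with 0.01 as its setting. GRCm38, HISAT2 2.1.0, StringTie 1.3.4d and Trimmomatic 0.36 are listed in the submitters' processing notes, without roles. Gene positions come from GENCODE mouse release 21, which held 99.7% of the identifiers. Members and gene lists were chosen with earlier results of these data known.

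Genes that reached 1 RPKM in any of the 5 libraries were analysed, and log2 folds used a pseudocount of 1. No p-value was computed, since each group is 1 library. The number of reads behind a value was recovered from the steps between low RPKM values. Between 90.4% and 90.5% of values below 5000 reads were whole within 0.02 of a read. Intervals are exact conditional binomial (ratios) or exact Poisson (levels), at 95%, on reads divided by 2, and cover counting error only. For Fosl1 and Maff the transcript length was also recovered from the values (1707 and 2119 bases). From each list, genes past the limit were named, at most 3 per list and time with the largest folds first, and for likeness the 5 nearest genes of each member, passing over predicted genes. Python 3.11.15, pandas 2.3.3 and scipy 1.17.1 were used, and the scripts were tested on simulated data. Alternatives were 3 other scalings, pseudocounts of 0.1 and 0.5, other filters, limits of 1.5-fold and 4-fold, GFOLD and, for later times, the 4-hour library as reference. The results of 2 genes in the lists are not reported here.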

Additional observations from a re-analysis of the deposited data

How the results depend on the processing

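Counts of members at least 2-fold higher stayed within 1.5 times of the main counts of 5, 5, 1 and 1 under each of the 3 scalings, a pseudocount of 0.5, both other filters and GFOLD. With a 4-fold limit the count was 0 at 4 hours, 2 on day 1 (Atf3 and Maff) and 0 on day 10. With a 1.5-fold limit it was 5 on day 3 and 2 on day 10, beside 22.2% and 10.46% of all analysed genes. A pseudocount of 0.1 gave 2 on day 3 and 2 on day 10, Atf3 and Batf3. The shares of all analysed genes were then 13.9% and 8.09%. With the 4-hour library as reference the count was 2 on day 1 (Fosl1 and Atf3), 0 on day 3 and 0 on day 10. Of all analysed genes, 2.7%, 9.52% and 6.08% were 2-fold higher against that library. Against it 2 members were 2-fold lower on day 3 and 3 on day 10, beside 6.92% and 3.57% of all analysed genes. Of the 40 log2 folds of members, 37 kept their sign under each of the 3 scalings and 40 under both pseudocounts, and 31 had it in the authors' deposited GFOLD values, where the others were 0; of the 30 steps between times, 25, 25 and 26 did. Of 96 counts for the other lists, 7, 6 and 8 moved by more than 1.5 times under the 3 scalings and 20 with a pseudocount of 0.1. No paired analysis was possible because each group is 1 library. Counting error limits Batf3 most, and spread between animals is unknown for all genes.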
